A study of Mus musculus with 25 samples.

Results

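The oligodendrocyte precursor identity genes Pdgfra, Cspg4, Lhfpl3, C1ql1, Matn4, Sox10, Olig1 and Olig2 were read as the rows of the deposited count table with the Ensembl identifiers of these symbols. They are 8 of the 47729 genes in the table, and all 8 passed the filter on low counts. The study sequenced total RNA of the brain, as hemispheres, in 5 age groups of 5 samples: 2, 9, 15, 24 and 30 months. All 25 animals were male and of the inbred strain C57BL/6. The labels name no treatment, transgene or altered allele. Nothing in them says whether the 5 samples of an age came from separate litters, cages or preparation days. The p-values therefore measure only the spread between these samples.

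Oligodendrocyte precursors are the dividing glial cells from which new myelin-forming oligodendrocytes arise, and they persist in the adult brain. Platelet-derived growth factor acting on the receptor encoded by Pdgfra drives their division and survival, and the proteoglycan encoded by Cspg4, known as NG2, marks their surface. A precursor that differentiates loses both, while the transcription factors Olig1, Olig2 and Sox10 stay expressed in mature oligodendrocytes. Pdgfra is also expressed in fibroblasts of the meninges and vessel walls, and Cspg4 in pericytes. In RNA from whole hemispheres fewer cells of a type and less RNA per cell cannot be told apart.

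The promoter windows of the 3 genes that were lower at 9 than at 2 months, Pdgfra, Cspg4 and Lhfpl3, are shown with that of Olig2, which was not. Each window runs from 250 bases before to 50 bases after a RefSeq gene start in GRCm38.p6 and is written 5′ to 3′ on the strand of the gene. Capitals mark matches to CANNTG, the E-box letters read by basic helix-loop-helix factors such as Olig1 and Olig2, or to ACAAAG, a core read by Sox factors.
Pdgfra (chr5:75152001-75152300, plus strand): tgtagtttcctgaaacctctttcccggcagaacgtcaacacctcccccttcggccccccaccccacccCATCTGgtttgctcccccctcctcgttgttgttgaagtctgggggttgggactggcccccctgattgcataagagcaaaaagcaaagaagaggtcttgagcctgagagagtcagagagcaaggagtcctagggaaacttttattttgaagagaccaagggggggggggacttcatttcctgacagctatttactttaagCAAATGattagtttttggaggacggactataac
Cspg4 (chr9:56864854-56865153, plus strand): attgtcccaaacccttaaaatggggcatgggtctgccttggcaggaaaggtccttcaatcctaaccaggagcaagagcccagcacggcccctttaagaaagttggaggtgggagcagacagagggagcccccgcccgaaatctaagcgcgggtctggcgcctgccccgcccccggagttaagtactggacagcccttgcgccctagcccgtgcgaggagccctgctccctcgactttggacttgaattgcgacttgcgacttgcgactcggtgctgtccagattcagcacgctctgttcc
Lhfpl3 (chr5:22745804-22746103, plus strand): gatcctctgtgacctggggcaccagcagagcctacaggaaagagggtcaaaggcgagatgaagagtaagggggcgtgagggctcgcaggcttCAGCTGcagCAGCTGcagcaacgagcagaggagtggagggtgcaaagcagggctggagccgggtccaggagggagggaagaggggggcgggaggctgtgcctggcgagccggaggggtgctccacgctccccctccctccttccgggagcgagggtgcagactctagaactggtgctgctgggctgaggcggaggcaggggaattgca
Olig2 (chr16:91225300-91225599, plus strand): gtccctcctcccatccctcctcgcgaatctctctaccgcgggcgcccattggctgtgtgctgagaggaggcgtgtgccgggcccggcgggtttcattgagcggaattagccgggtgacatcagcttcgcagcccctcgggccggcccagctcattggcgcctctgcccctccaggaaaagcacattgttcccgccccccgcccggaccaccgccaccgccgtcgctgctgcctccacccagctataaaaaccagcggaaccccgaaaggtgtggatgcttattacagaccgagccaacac
Both strands were searched, CANNTG reads alike on both, and the pair of motifs overlapped in none of these 4 windows. Pdgfra and Lhfpl3 each held 2 matches to CANNTG, and Cspg4 and Olig2 held 0. None of the 4 windows held ACAAAG. Of 32851 RefSeq promoter windows of this length, 72.3% held CANNTG and 18.7% held ACAAAG, so these matches are a description and no sign of binding. The table had windows for 5 of the 8 genes.

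Total counts per library, divided by 1000000, lay between 17.8 and 31.26. The labels give no batch. The 30 month libraries stood apart in base composition. The log2 level of the 10% of genes richest in GC, less that of the 10% poorest and relative to the mean of the younger libraries, was 1.03 to 1.84 in 30 month replicates 2 to 5 and 0.126 in replicate 1. It was -0.243 to 0.148 in the 20 younger libraries, with all 5 libraries of 15 months below 0 and all 5 of 24 months above it. The ages from 2 to 24 months were therefore fitted without 30 months, and values corrected for GC content are given beside the others. Levels are counts scaled to a library total of 1000000 (CPM) after TMM scaling, and a gene is called at an adjusted p under 0.05 in edgeR's quasi-likelihood test, adjusted over all genes tested. Log2 fold changes give the older age relative to the younger.

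Per kilobase of exon, over the 20 libraries of 2 to 24 months, Olig1 had the highest level, 42.9 ± 4.398 CPM per kilobase (SD). Sox10 at 14.7 ± 1.28 and Lhfpl3 at 14.4 ± 0.948 CPM per kilobase followed, and their order changed with age. Without GC correction Lhfpl3 was the higher in every 2 month library, with means of 15.2 and 13.7 CPM per kilobase. Sox10 was the higher in every 24 month library, with means of 16.5 and 14.8 CPM per kilobase. Olig2 stood at 9.60 ± 1.03 and Pdgfra at 7.48 ± 0.501 CPM per kilobase. C1ql1 had 4.07 ± 0.632, Cspg4 2.07 ± 0.243 and Matn4 1.57 ± 0.174 CPM per kilobase. The fewest counts in any library were 77 for C1ql1, 139 for Matn4 and 374 for Cspg4. The lengths are of all annotated exons, so the isoform in use can shift this order.

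At 9 months Pdgfra, Cspg4 and Lhfpl3 fell relative to 2 months, each by more than 10%, and no other member was called. These were 3 of 8 members, all lower, where 14.9% of all genes tested were called and 6.96% were called lower. The members' median log2 fold change was 0.03, against -0.0072 over all genes. With GC correction the same 3 were called, where 16.2% of all genes were called and 7.23% were called lower. DESeq2 on the same libraries called 2, not Cspg4. In 1 fit with the 30 month libraries, whose spread it shares, edgeR called 0 of the 8, with 2 at an unadjusted p under 0.05. The 3 that fell encode membrane proteins, and the 3 transcription factors had small positive log2 fold changes of 0.06 for Sox10, 0.09 for Olig1 and 0.13 for Olig2, none of them called. Olig1 had an unadjusted p of 0.0285 (adjusted p = 0.123, 95% interval 0.914% to 12.01%). In 9 months replicate 1 the summed level of 6 choroid plexus genes was 37.4 CPM, against 513 to 559 CPM in the other 4 libraries of that age and 481 to 543 CPM at 2 months. Without that library the 3 calls were kept, with log2 fold changes of -0.18 for Pdgfra, -0.18 for Cspg4 and -0.23 for Lhfpl3.

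Pdgfra, the receptor for platelet-derived growth factor A, lies on chromosome 5 (GRCm38, 75152292 to 75198215, plus strand). It had 89.5, 82.8, 76.8, 79.7 and 75.7 CPM in the 5 libraries of 2 months and 72.9, 65.5, 70.1, 76.1 and 73.1 CPM in those of 9 months. The 15 month libraries had 70.9, 72.3, 72.5, 71.9 and 75.2 CPM and the 24 month libraries 75.4, 73.1, 72.6, 75.8 and 77.7 CPM. All but 3 libraries of 9 to 24 months lay below every library of 2 months, the exceptions being 76.1 CPM at 9 months and 75.8 and 77.7 CPM at 24 months.

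Relative to 2 months Pdgfra changed by -11.5% at 9 months (log2 fold change -0.18 ± 0.040 SE, adjusted p = 0.00283). The change was -9.93% at 15 months (adjusted p = 0.0120), where no library overlapped with 2 months. At 24 months it was -7.30% (adjusted p = 0.0442), a call lost without any 1 of 2 months replicates 1, 2 and 4, 15 months replicate 3 or 24 months replicates 1 to 4 (adjusted p = 0.163 at the highest). Neither of the later steps was called. The change between 9 and 15 months was 1.81% (95% interval -3.57% to 7.50%), and that between 15 and 24 months 2.93% (-2.47% to 8.62%). The linear slope over 2 to 24 months was -0.05 log2 units per 12 months and was not called (adjusted p = 0.246).

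Lhfpl3 encodes a tetraspan membrane protein of the LHFPL family and is used as a precursor marker (chromosome 5, 22746059 to 23275597, plus strand). Its libraries had 49.5, 50.7, 46.5, 50.4 and 47.3 CPM at 2 months and 46.0, 39.03, 41.3, 42.1 and 43.5 CPM at 9 months. At 15 months they had 46.2, 45.0, 45.6, 49.4 and 46.1 CPM, and at 24 months 48.9, 47.9, 46.7, 46.2 and 48.4 CPM. Every 9 month library lay below every 2 month library, while the 24 month libraries overlapped with them. Without GC correction it was the only member whose 9 and 2 month libraries did not overlap, in a comparison where 9.96% of all genes did not overlap. With GC correction Pdgfra did not overlap there either, where 10.7% of all genes did not.

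The change of Lhfpl3 at 9 months was -13.1% (log2 fold change -0.20 ± 0.040 SE, adjusted p = 0.000859). From that age it was higher at 15 months, by 9.92% (adjusted p = 0.0258). The call was lost without 9 months replicate 2 or 3 or without 15 months replicate 4 (adjusted p = 0.107 at the highest). With GC correction the difference was 5.98% and was not called (adjusted p = 0.212). At 24 months Lhfpl3 differed from 2 months by -2.33% (95% interval -7.44% to 3.06%).

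Cspg4, the NG2 proteoglycan, lies on chromosome 9 (56865033 to 56899870, plus strand). Its 2 month libraries had 26.8, 27.9, 22.8, 26.2 and 27.3 CPM and its 9 month libraries 24.8, 21.2, 25.1, 22.5 and 22.8 CPM. Its level was lowest at 15 months, with 20.5, 22.1, 21.4, 22.7 and 21.3 CPM, and at 24 months it was 30.3, 26.8, 28.3, 27.1 and 26.9 CPM. Without GC correction, every 15 month library lay below every library of 2 months and of 24 months. With GC correction all still lay below those of 24 months, but not below 2 months replicate 3, at 22.1 CPM.

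The change of Cspg4 relative to 2 months was -10.6% at 9 months (adjusted p = 0.0448) and -16.7% at 15 months (log2 fold change -0.26 ± 0.056 SE, adjusted p = 0.00199). With GC correction the 15 month change was -11.9% (adjusted p = 0.0396). The difference of 15 from 9 months was -6.85% uncorrected and -1.57% corrected, and was called in neither. The 9 month call was lost without any 1 of 16 of the 20 libraries (adjusted p = 0.152 at the highest). It was kept without 2 months replicate 3, 9 months replicate 1 or 3, or 24 months replicate 1. Between 15 and 24 months Cspg4 rose by 28.6% (log2 fold change 0.36 ± 0.054 SE, adjusted p = 3.65e-05), and by 17.4% with GC correction (adjusted p = 0.00509). Its level at 24 months differed from that at 2 months by 7.11% and was not called (-0.429% to 15.2%).

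**Figure D1:**
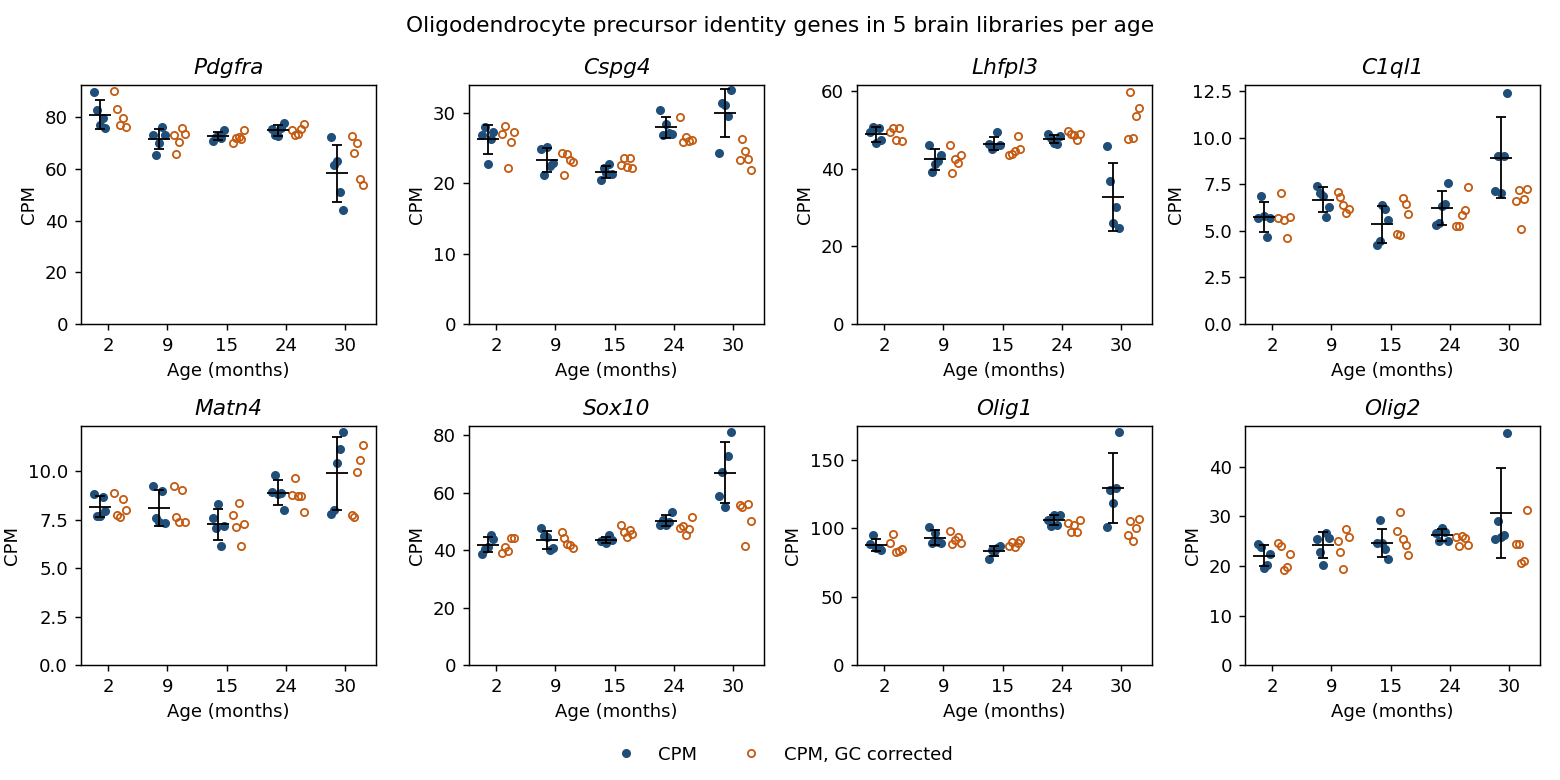
CPM of each of the 8 genes (vertical axes, each from 0) in the 5 libraries of each age in months (horizontal axis), not GC corrected (filled) and GC corrected (open), with bars for the mean and SD of the filled points. Every 9 month library of Lhfpl3 lies below its 2 month libraries, Sox10 and Olig1 are higher at 24 months, and at 30 months the filled points spread away from the open ones.

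The counts of Pdgfra and Cspg4 can include RNA from fibroblasts and pericytes, and some markers of each were called at the same ages. Of 12 markers of pericytes and smooth muscle 6 fell at 9 months, where 6.96% of all genes were called lower, and their summed level was 277 to 321.7 CPM at 9 months, against 339 to 400.5 CPM at 2 months. At 15 relative to 2 months 4 of the 12 fell, where 6.95% of all genes were called lower, and 4 with GC correction, where 3.95% were. At 24 relative to 15 months 3 rose, where 11.9% of all genes were called higher, and 2 with GC correction, where 4.56% were. The 3 were Acta2, Myh11 and Tagln, with log2 fold changes of 0.43, 0.41 and 0.44. At 24 relative to 2 months 2 of the 12 fell, where 11.7% of all genes were called lower, and 1 with GC correction, where 13.8% were. Of the 2, Notch3 had 23.0 ± 1.01 CPM, against 27.8 ± 0.619 CPM at 2 months (log2 fold change -0.27, adjusted p = 0.000223). Notch3 encodes a receptor of vascular smooth muscle and pericytes. The other was Rgs5, the highest of the 12 in level, with 118 ± 11.6 CPM, against 142 ± 12.1 CPM at 2 months (log2 fold change -0.27, adjusted p = 0.0466). The log2 fold changes of Pdgfrb, Kcnj8, Abcc9 and Vtn were 0.004, 0.05, 0.07 and 0.15. Those of Anpep, Acta2, Myh11, Tagln, Higd1b and Des were -0.12, -0.16, -0.18, -0.19, -0.18 and -0.16. None of these was called at 24 relative to 2 months. Of 10 fibroblast markers 1 fell at 9 months, Col1a2 (log2 fold change -0.67, adjusted p = 0.00763). At 15 months 2 fell, and 1 with GC correction, and at 24 months 3 fell. Between 15 and 24 months none of the 10 fibroblast markers was called. Their summed level was 208 to 239 CPM at 24 months, against 239.7 to 354 CPM at 2 months. The 3 at 24 months were the collagen genes Col3a1, Col1a2 and Col1a1, with log2 fold changes of -0.99, -0.80 and -0.92 (adjusted p = 0.00237, 0.0014 and 0.00853). Col1a1 had 34.3 ± 16.2 CPM at 2 months and 17.8 ± 2.05 CPM at 24 months (SD). No other fibroblast marker was called at 24 months. The log2 fold changes of Dcn, Slc6a13, Islr and Aldh1a2 were 0.05, 0.25, 0.05 and 0.13. Those of Lum, Igf2 and Slc22a6 were -0.20, -0.21 and -0.10. No marker of either list was at 0 in all libraries. Their part in the changes of Pdgfra and Cspg4 was not tested.

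The secreted and matrix members moved less clearly. C1ql1 encodes a secreted C1q-domain protein that binds the adhesion receptor Adgrb3 (chromosome 11, 102939264 to 102946688, minus strand). It averaged 5.74 ± 0.788, 6.67 ± 0.660, 5.36 ± 0.992 and 6.22 ± 0.917 CPM at 2, 9, 15 and 24 months (SD, n = 5 each). No comparison among these ages called it. Its difference at 24 months from 2 months was 8.42% with a 95% interval of -7.40% to 27.0%, and at 9 months 16.4% with -0.621% to 36.4%. Its largest difference among these ages was -19.3% at 15 relative to 9 months, with -31.1% to -5.45% (unadjusted p = 0.0128, adjusted p = 0.0855), and -11.4% with GC correction. The libraries of 2 to 24 months had 77 to 228 counts of C1ql1. Whether that depth kept changes of this size from being called was not tested.

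Matn4 encodes matrilin 4, an adaptor protein of the extracellular matrix (chromosome 2, 164389393 to 164405160, minus strand). Its 24 month libraries had 8.96, 9.81, 8.85, 8.87 and 7.99 CPM, against 7.62, 7.05, 8.31, 6.15 and 7.20 CPM in the 15 month libraries. The groups overlapped by 1 pair, 7.99 CPM at 24 months and 8.31 CPM at 15 months. Matn4 rose by 21.9% between these ages (log2 fold change 0.29 ± 0.083 SE, adjusted p = 0.0119). Rbpjl overlaps Matn4 on the other strand, and its counts reached 16.2% of those of Matn4 in 1 library. The kit is not stated to keep the strand, so reads of the overlap cannot be assigned. Among the other members, overlapping genes reached at most 7.73% of the counts of C1ql1 and 4.02% of those of Lhfpl3.

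The 3 transcription factors rose by 24 months. Sox10, Olig1 and Olig2 were each about 20% higher at 24 than at 2 months, and none of their 24 month libraries overlapped with a 2 month library. In this comparison 4 of 8 members were called, 3 higher and Pdgfra lower, where 22.8% of all genes were called, 11% of all higher and 11.7% lower. Non-overlapping libraries were seen in 3 members, in a comparison where 14.7% of all genes had them. With GC correction they were seen in 2, Sox10 and Olig1, where 14.8% of all genes had them. The members' median log2 fold change was 0.12, against 0.0024 over all genes. With GC correction Sox10, Olig1 and Pdgfra were called, where 23.5% of all genes were called, 9.63% higher and 13.8% lower. In 1 fit with the 30 month libraries Sox10 alone was called (adjusted p = 0.0411), and Olig1 had an adjusted p of 0.0574.

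Sox10 encodes a Sox-family factor of the oligodendrocyte lineage that activates myelin genes (chromosome 15, 79154908 to 79165240, minus strand). Its libraries had 38.8, 40.5, 41.2, 45.1 and 44.0 CPM at 2 months and 47.8, 44.8, 44.7, 40.2 and 40.9 CPM at 9 months. They had 43.2, 43.3, 42.4, 45.2 and 43.6 CPM at 15 months and 48.9, 50.5, 48.8, 49.9 and 53.2 CPM at 24 months. Without GC correction, the 24 month libraries lay above every younger one. With GC correction they still lay above those of 2 months. The lowest of them, at 45.4 CPM, then lay below the highest of 9 months (46.3 CPM) and of 15 months (48.6 CPM). Sox10 rose by 20.1% over 2 months (log2 fold change 0.26 ± 0.044 SE, adjusted p = 6.9e-05), and by 16.003% with GC correction (adjusted p = 0.000415). The timing of the rise depended on the correction. Between 15 and 24 months it was 15.1% uncorrected (adjusted p = 0.00128) and 3.94% corrected (adjusted p = 0.419). Between 2 and 15 months it was 4.34% uncorrected (adjusted p = 0.414) and 11.6% corrected (adjusted p = 0.0190).

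Olig1 and Olig2 are neighbouring genes on the plus strand of chromosome 16 (91269772 to 91271933 and 91225457 to 91228677) and encode basic helix-loop-helix factors. Olig2 specifies the lineage in the embryo, and Olig1 takes part in later maturation. Olig1 had 88.7, 94.9, 86.0, 85.4 and 84.5 CPM at 2 months, 101, 89.3, 96.7, 90.3 and 89.6 CPM at 9 months, 78.0, 84.1, 82.6, 85.7 and 87.5 CPM at 15 months and 106, 102, 109.9, 103 and 109.7 CPM at 24 months. Without GC correction, the 24 month libraries lay above all younger ones, and the 15 month libraries below all of 9 months. With GC correction the lowest 24 month library, at 97.7 CPM, lay just below the highest of 9 months, at 98.0 CPM. Corrected libraries of 15 and 9 months overlapped. Olig1 rose by 20.8% at 24 over 2 months (log2 fold change 0.27 ± 0.038 SE, adjusted p = 6.22e-06), and by 16.6% with GC correction (adjusted p = 3.83e-05). It was lower at 15 than at 9 months by a change of -10.2% (adjusted p = 0.00885), which became -3.76% with GC correction and was not called (adjusted p = 0.388).

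Olig2 had 26.6, 25.1, 27.7, 26.8 and 25.1 CPM at 24 months, against 24.5, 23.8, 19.7, 20.2 and 22.4 CPM at 2 months. The lowest 24 month library, at 25.06 CPM, lay just above the highest 2 month library. Olig2 rose by 19.2% (log2 fold change 0.25 ± 0.080 SE, adjusted p = 0.0253). With GC correction the value was 15.2% and was not called (adjusted p = 0.128), and the call was also lost when 2 months replicate 3 or 4, or 24 months replicate 1 or 3, was left out (adjusted p = 0.0745 at the highest).

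Fitted as a straight line over 2 to 24 months, the same 3 factors were the members called, where 16.8% of all genes were called and 8.44% were called higher. The slopes were 0.14 ± 0.026 for Sox10 (adjusted p = 0.000654), 0.13 ± 0.035 for Olig1 (adjusted p = 0.0162) and 0.13 ± 0.040 for Olig2 (adjusted p = 0.0237), in log2 units per 12 months with SE. The call of Olig1 was lost without 24 months replicate 5 (adjusted p = 0.0531), and that of Olig2 when 2 months replicate 3 or 4, or 24 months replicate 3, was left out (adjusted p = 0.0611 at the highest). With GC correction Sox10 and Olig1 were called, where 20% of all genes were called and 8.42% were called higher, and Olig2 was not (adjusted p = 0.110). A difference of any shape among the 4 ages was called for 6 of the 8 members, where 45.3% of all genes were called, and for 5 with GC correction, where 38.7% were. Without GC correction, the 2 not called were C1ql1 (adjusted p = 0.114) and Olig2 (adjusted p = 0.0688).

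The remaining pairs of ages split the members differently. At 15 relative to 2 months Pdgfra and Cspg4 fell, 2 of 8 members, where 13.1% of all genes were called and 6.95% were called lower. Neither overlapped with 2 months, in a comparison where 10.5% of all genes did not. With GC correction Sox10 was called higher beside them, where 8.13% of all genes were called, 4.18% higher and 3.95% lower. Pdgfra and Sox10 then did not overlap, where 8.11% of all genes did not. At 15 relative to 9 months Lhfpl3 rose and Olig1 fell, 2 of 8, where 10.9% of all genes were called, 4.45% higher and 6.45% lower. The libraries of Olig1 did not overlap, where 8.59% of all genes did not (6.12% with GC correction, under which all 8 members overlapped). With GC correction edgeR called 0 members in that pair, with 2 at an unadjusted p under 0.05, where 5.58% of all genes were called. Between 15 and 24 months Cspg4, Matn4, Sox10 and Olig1 rose, 4 of 8, where 24.1% of all genes were called and 11.9% were called higher. All but Matn4 had libraries that did not overlap, where 16.5% of all genes did not. With GC correction Cspg4, Matn4 and Olig1 were called in that pair, where 13.4% of all genes were called and 4.56% were called higher. Cspg4 and Olig1 then did not overlap, where 10.9% of all genes did not. In 1 fit with the 30 month libraries Cspg4 and Olig1 were called in that pair, and in both other pairs 0 members were, each with 1 at an unadjusted p under 0.05.

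**Figure D2:**
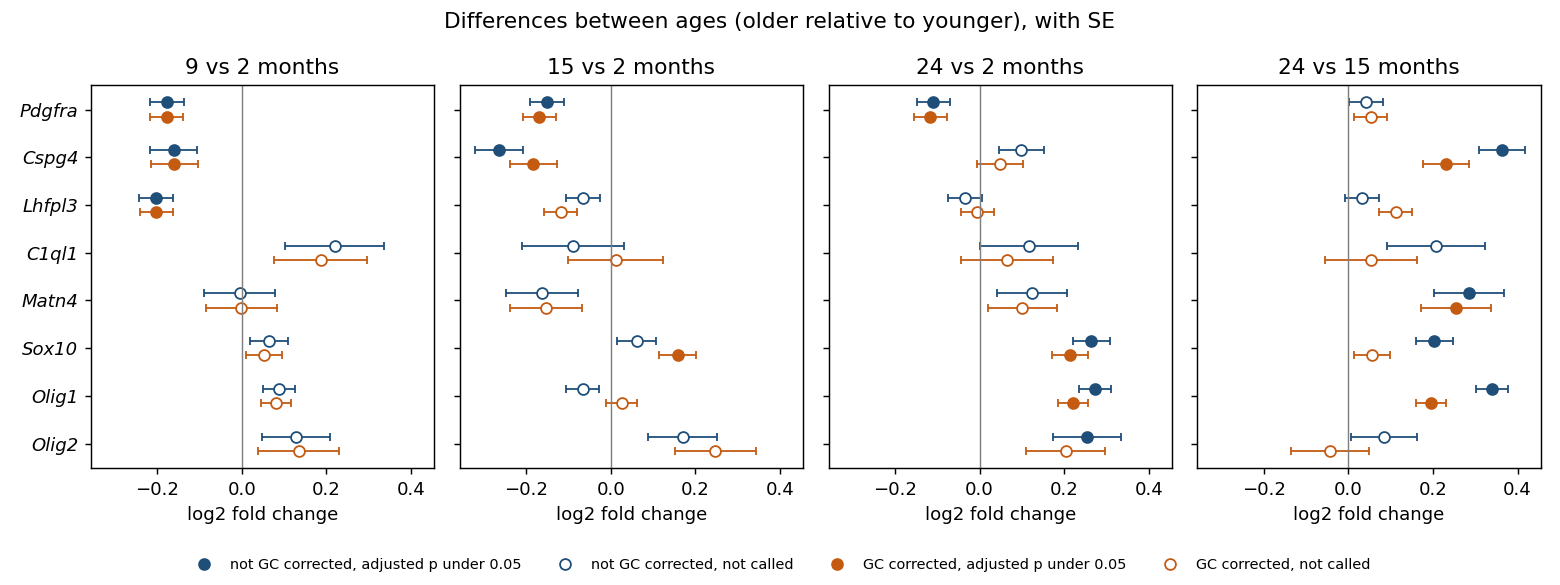
Log2 fold change with SE (horizontal axes, older relative to younger age) of the 8 genes in 4 pairs of ages, without and with GC correction, filled where the adjusted p was under 0.05. Pdgfra, Cspg4 and Lhfpl3 are filled to the left of 0 at 9 months, and Sox10, Olig1 and, without correction, Olig2 to the right of 0 at 24 months.

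A ratio of the counts of 2 genes within a library does not depend on how the library is scaled. The ratio of Sox10 to Pdgfra counts was 0.648, 0.691, 0.672, 0.659 and 0.685 in the 24 month libraries, against 0.433, 0.489, 0.536, 0.566 and 0.581 in the 2 month libraries. The 2 groups did not overlap. The ratio of Olig1 to Pdgfra was 1.41, 1.39, 1.51, 1.36 and 1.41 at 24 months and 0.990, 1.15, 1.12, 1.07 and 1.12 at 2 months, again with no overlap. The means at 9 and 15 months were 0.613 and 0.600 for Sox10 and 1.31 and 1.15 for Olig1. At 9 months the lowest Olig1 ratio, 1.19, already lay above every 2 month library, while the Sox10 ratios of these ages overlapped. The genes differ in GC content, and with GC correction the Sox10 means were 0.516, 0.602, 0.644 and 0.643 at 2, 9, 15 and 24 months, so that the 15 month mean no longer lay below that of 24 months. The corrected Olig1 means were 1.08, 1.29, 1.23 and 1.36. The ratios of Cspg4 and Lhfpl3 to Pdgfra were also higher on average, 0.373 and 0.636 at 24 months, against 0.325 and 0.605 at 2 months. With GC correction these means were 0.358 and 0.652, against 0.321 and 0.606, and the libraries overlapped either way. The ratio of Olig1 to Olig2 averaged 4.05 at 24 months and 3.999 at 2 months. These ratios were formed after the members' values were seen and carry no test.

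**Figure D3:**
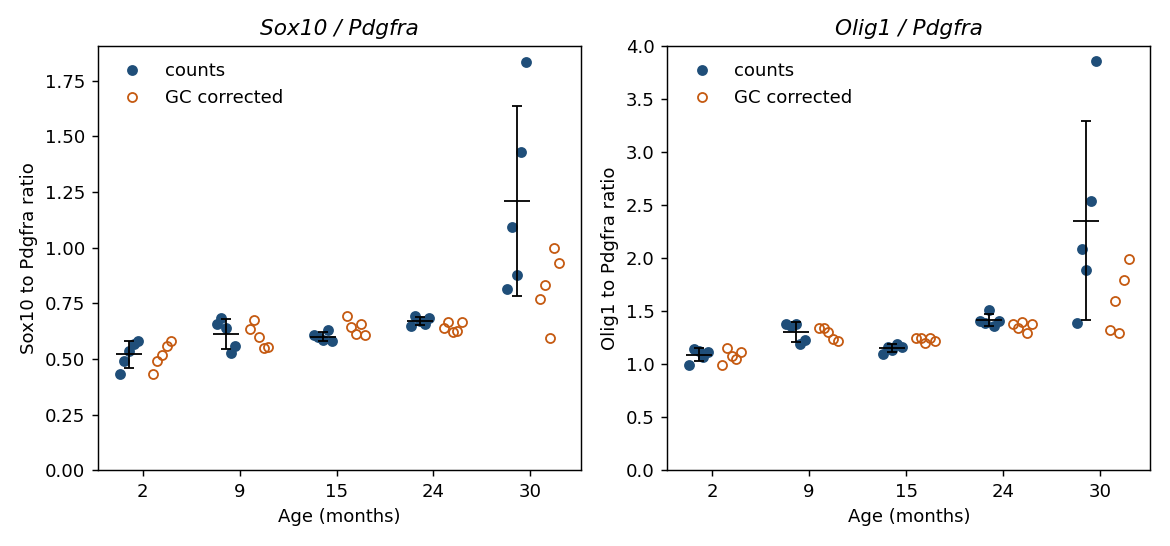
Ratio of Sox10 (left) and Olig1 (right) to Pdgfra within each library (vertical axes, no unit) against age in months, from counts (filled) and GC corrected counts (open), with bars for the mean and SD of the filled points. Both ratios are higher at 24 than at 2 months without overlap, and at 30 months correction lowers the mean from counts of 1.21 for Sox10 to 0.825.

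At 30 months all 8 members were called against 2 months before correction, and the sign of each change went with the base composition of the transcript. Of all genes 58% were called in this comparison, 28.5% higher and 29.5% lower. Libraries did not overlap in 6 of the 8 members, where 23.9% of all genes did not. The 2 members poorest in GC, Lhfpl3 with 41.5% and Pdgfra with 48.1% GC in the longest transcript, were lower. The other 6, with 51.2% to 65.8% GC, were higher. Lhfpl3 had 46.0, 36.9, 26.1, 30.2 and 24.7 CPM at 30 months, against 49.5, 50.7, 46.5, 50.4 and 47.3 CPM at 2 months, and its highest library was replicate 1, the 1 without the shift in GC. After GC correction the same 30 month libraries had 47.6, 59.8, 48.0, 53.5 and 55.6 CPM. Its log2 fold change was -0.58 before and 0.11 after correction. For C1ql1, the member richest in GC, the values were 0.63 and 0.20.

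**Figure D4:**
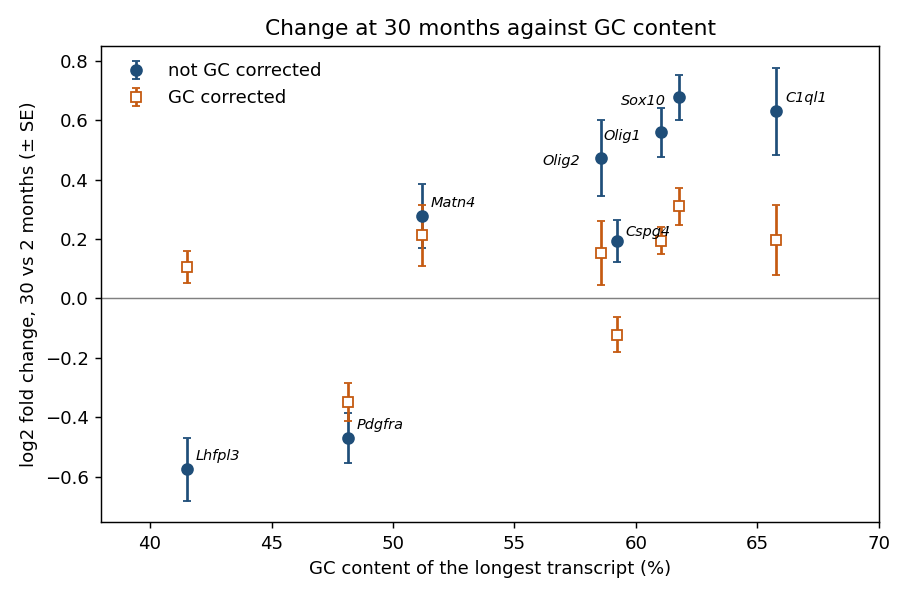
Log2 fold change with SE at 30 relative to 2 months (vertical axis) of the 8 genes against the GC content of the longest transcript in percent (horizontal axis), without (filled circles) and with (open squares) GC correction. Uncorrected values run from -0.58 for Lhfpl3 at 41.5% GC to 0.68 for Sox10 at 61.8% GC, and corrected values from -0.35 for Pdgfra to 0.31 for Sox10.

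With GC correction 3 of 8 members were called at 30 against 2 months, Pdgfra lower and Sox10 and Olig1 higher, where 45.9% of all genes were called, 25.1% higher and 20.8% lower. Corrected Pdgfra levels were 72.5, 66.0, 69.9, 56.2 and 53.6 CPM at 30 months, against 90.1, 83.2, 77.0, 79.5 and 76.1 CPM at 2 months. No 30 month library reached the lowest of 2 months, in a comparison where 19.8% of all genes did not overlap after correction, and replicates 4 and 5 were the lowest. The change was -21.5% (log2 fold change -0.35 ± 0.063 SE, adjusted p = 7.43e-05). Corrected Sox10 levels were 55.7, 54.9, 41.6, 56.0 and 50.003 CPM at 30 months, against 39.01, 41.0, 39.7, 44.3 and 44.1 CPM at 2 months. Replicate 3 at 41.6 CPM lay among the 2 month libraries and the other 4 lay above them. Sox10 was higher by 24.0% (log2 fold change 0.31 ± 0.063 SE, adjusted p = 0.000243).

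Corrected Olig1 levels were 95.6, 106, 90.7, 101 and 107 CPM at 30 months, against 89.1, 95.9, 83.1, 83.8 and 84.7 CPM at 2 months, and the groups overlapped. The difference was 14.4% (log2 fold change 0.19 ± 0.046 SE, adjusted p = 0.00109). Leaving out any 1 library of 30 months kept these 3 corrected calls, with log2 fold changes of -0.40 to -0.29 for Pdgfra, 0.28 to 0.38 for Sox10 and 0.17 to 0.23 for Olig1. Without replicates 2 to 5, which leaves 1 library at 30 months that is assumed to vary like the other ages, edgeR called Sox10 only. Its log2 fold change was then 0.49 (adjusted p = 3.25e-05), and those of Pdgfra and Olig1 were -0.17 (adjusted p = 0.148) and 0.19 (adjusted p = 0.0627).

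Relative to 24 months, 5 of 8 members were called at 30 months before correction, where 54.5% of all genes were called, 25.5% higher and 29% lower. After correction 2 of 8 were called, both lower, where 41.8% of all genes were called and 17.5% were called lower. The 2 were Pdgfra, with a corrected change of -14.8% (adjusted p = 0.00423), and Cspg4, with -10.8% (adjusted p = 0.0248). The call of Cspg4 was lost without 30 months replicate 5 (adjusted p = 0.0706). Corrected Sox10 and Olig1 differed between 30 and 24 months by 7.10% (95% interval -1.52% to 16.5%) and -1.70% (-7.58% to 4.55%), and neither was called.

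Among other genes enriched in precursors more fell than rose. Of 15 listed, 6 fell and 1 rose at 24 relative to 2 months, with a median log2 fold change of -0.14, against 0.0024 over all genes. With GC correction 8 fell and 1 rose. All counts of lists at 24 months stand against 11% of all genes called higher and 11.7% called lower, and 9.63% and 13.8% with GC correction. Gpr17, a receptor of precursors that have begun to differentiate, had 28.5 ± 2.90 CPM at 24 months, against 64.1 ± 9.82 CPM at 2 months (log2 fold change -1.17, adjusted p = 1.59e-06). Emid1 had 2.91 ± 0.270 CPM at 24 months, against 4.48 ± 0.348 CPM at 2 months (log2 fold change -0.62, adjusted p = 0.000189). Vcan, the proteoglycan versican, had 30.7 ± 2.94 CPM at 24 months, against 38.5 ± 3.10 CPM at 2 months (log2 fold change -0.32, adjusted p = 0.00137). Gpr17 changed by more than any member of the 8 at this age. Of 5 genes for the platelet-derived growth factors and their receptor Pdgfrb, 1 fell at 24 months. It was the ligand gene Pdgfc, with 7.72 ± 0.342 CPM at 24 months, against 10.1 ± 1.14 CPM at 2 months (log2 fold change -0.38, adjusted p = 0.000266). With GC correction 1 of the 5 rose and 2 fell.

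Genes of cell division were measured at levels of a few CPM. Of 10 listed, 8 passed the filter and 4 of these fell at 24 relative to 2 months. At 9 relative to 2 months 4 of the 8 fell as well, where 6.96% of all genes were called lower. The summed level of the list was 13.9 to 15.6 CPM at 9 months and 13.7 to 16.7 CPM at 24 months. At 2 months it was 19.5 to 28.1 CPM, with no overlap with either age. Top2a, a topoisomerase of dividing cells, had 1.02 ± 0.517 CPM at 24 months, against 3.27 ± 0.844 CPM at 2 months (log2 fold change -1.65, adjusted p = 5.03e-06). Mki67, the Ki-67 antigen, had 1.67 ± 0.568 CPM at 24 months, against 3.88 ± 1.45 CPM at 2 months (log2 fold change -1.18, adjusted p = 0.000308), and Cenpf, a kinetochore protein, was lower as well (log2 fold change -1.03, adjusted p = 2.69e-05). Which cells these transcripts came from was not measured.

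Among 10 genes of committed and premyelinating cells 5 fell and 1 rose at 24 relative to 2 months. The list shares Gpr17 and Neu4 with the precursor list. Bcas1, a gene of early myelinating cells, rose to 195 ± 13.99 CPM at 24 months, against 144 ± 11.7 CPM at 2 months (log2 fold change 0.44, adjusted p = 0.000397). Rras2, a Ras-related GTPase, fell (log2 fold change -0.36, adjusted p = 0.000343). Of 15 further transcription factors of the lineage and its precursors 4 rose and 4 fell, and 3 rose and 5 fell with GC correction. Nkx2-2, 1 of the 4 that rose, is also in the precursor list. Myrf, the factor that switches on myelin genes, had 104.9 ± 7.58 CPM at 24 months, against 80.8 ± 1.04 CPM at 2 months (log2 fold change 0.38, adjusted p = 3.22e-06). Nkx6-2, a homeobox factor of oligodendrocytes, rose (log2 fold change 0.50, adjusted p = 0.000155), and Sox11, a factor of immature cells, fell (log2 fold change -0.44, adjusted p = 3.72e-05).

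The myelin list had more genes that fell than rose at 9 months, the age at which Pdgfra, Cspg4 and Lhfpl3 fell. Of 14 listed, 6 fell and 1 rose at 9 relative to 2 months, where 6.96% of all genes were called lower. In the same comparison 5 of the 15 other precursor genes fell and 1 rose. Of the 10 committed and premyelinating genes 6 fell, and of the 8 tested division genes 4 fell. At 24 relative to 15 months 8 of the 14 myelin genes rose, where 11.9% of all genes were called higher, and 6 with GC correction, where 4.56% were. At 24 relative to 2 months 4 rose and 3 fell. Trf, the iron carrier transferrin, rose (log2 fold change 0.55, adjusted p = 1.3e-06), Gjb1, a gap junction protein of oligodendrocytes, rose (log2 fold change 0.51, adjusted p = 1.36e-05), and Ugt8a, the enzyme of galactocerebroside synthesis, fell (log2 fold change -0.32, adjusted p = 0.000682). The summed level was 6437 to 6898 CPM at 24 months, against 5593 to 6869 CPM at 2 months. Mature oligodendrocytes express Sox10, Olig1 and Olig2, and their part in the rise of these factors was not tested.

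Lists related to the surface and secreted members gave mixed counts at 24 relative to 2 months. Of 11 other genes of proteoglycans and matrix proteins, 9 were tested, 3 rose and 2 fell. The list shares Vcan, Ptprz1 and Tnr with the precursor list, and Vcan was 1 of the 2 that fell. Hapln2, a link protein at nodes of Ranvier, rose to 34.7 ± 3.67 CPM at 24 months, against 20.4 ± 1.85 CPM at 2 months (log2 fold change 0.77, adjusted p = 1.85e-07). Ncan, the proteoglycan neurocan, fell to 167 ± 9.56 CPM at 24 months, against 216 ± 27.1 CPM at 2 months (log2 fold change -0.38, adjusted p = 0.000975). Of 9 genes of the C1q-like and LHFPL families and the receptor Adgrb3, 8 were tested and 2 fell, Adgrb3 among them (log2 fold change -0.14, adjusted p = 0.00143). With GC correction 1 of the 8 rose and 2 fell.

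The protein-coding genes whose log2 CPM followed each member most closely over the 20 libraries of 2 to 24 months were sought among 12870 genes with a mean of at least 2 CPM. Pearson's r was 0.858 between Pdgfra and Strip2, 0.891 between Cspg4 and Slc7a5, 0.883 between Lhfpl3 and Maoa and 0.773 between C1ql1 and Eif3k. It was 0.785 between Matn4 and Myc, 0.897 between Sox10 and Myh14, 0.912 between Olig1 and Gnai2 and 0.785 between Olig2 and Med6. The mean of the 8 members' standardised levels was followed most closely by Sparc (0.890), Tns2 (0.886), Agt (0.859), Adgrg1 (0.859), Hepacam (0.846) and Vsir (0.844). These are the highest values of a search, across libraries that share ages, depth and base composition, and are given as a description without a test.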

How the data were processed

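Total RNA of 25 brain samples, 5 per age, was measured. The authors used CASAVA 1.7, STAR 2.4.1d and featureCounts 1.4.6-p4 with GRCm38, per the submitters' processing notes. The authors deposited raw counts per Ensembl gene; the annotation release and counting settings are not given in the sources used here. The authors' RPKM values were not used, because their sums follow library size. Symbols, coordinates, exon lengths and GC content of the longest transcript came from GENCODE M21 (GRCm38), which matched 47310 of 47729 identifiers.

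The counts were tested with edgeR 4.0.16 under R 4.3.3 (filterByExpr, TMM, robust quasi-likelihood test, 1 mean per age), two-sided, with Benjamini-Hochberg adjustment over 17472 genes for the 20 libraries of 2 to 24 months and 17799 for all 25, which were used for 30 months. GC offsets were smooth splines (df 6) of each library's log ratio on GC content. Intervals are 95%, from the SE. The code was tested on simulated counts. Total counts divided by 1000000 were 17.8 to 31.26, and the spread between libraries limits the precision. Chi-square per degree of freedom between libraries of an age was 1.51 to 6.45 at 2 to 24 months and 4.54 to 129.8 at 30 months, so no library was a repeat of another.

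Alternatives were other scalings, no filter, DESeq2 1.42.0, GC offsets, all 25 libraries in 1 fit and leaving out libraries. The members, the 17 other gene lists with 158 symbols and the settings were chosen with earlier results of these data known. Named are all members, up to 3 genes per list by the smallest p of the trend over 2 to 24 months, and the genes nearest to each member. Promoter sequences are from RefSeq (GRCm38.p6).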

Additional observations from a re-analysis of the deposited data

Results flagged for a closer look

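In 2 of 40 sets of 5 libraries of an age, 1 library lay far from the other 4, by Dixon's ratio of the gap to the nearest library to the whole range; chance gives about 1 in 20. Lhfpl3 had 49.4 CPM in 15 months replicate 4, against 45.0 to 46.2 CPM in the other 4 libraries of that age (ratio 0.716). Without that library the rise of Lhfpl3 between 9 and 15 months was no longer called. Olig2 had 46.8 CPM in 30 months replicate 5, against 25.4 to 29.1 CPM in the other 4 (ratio 0.829). That library has the largest shift in GC, 1.84 on the log2 scale, and after GC correction its level was 31.3 CPM, against 20.5 to 24.5 CPM in the other 4.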

How the results depend on the processing

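No paired analysis was possible because the replicate numbers only count the samples of an age and pair none across ages. The 20 library fit decided most calls at 2 to 24 months. In 1 fit of all 25 libraries, edgeR called 0 members at 9 against 2 months (2 at an unadjusted p under 0.05), 0 at 15 against 2 months (1), 0 at 15 against 9 months (1), 1 at 24 against 2 months and 2 at 24 against 15 months; the cause was not tested. Without the filter on low counts 2 were called at 24 against 2 months. RLE size factors kept all 18 called values of 2 to 24 months and all 13 at 30 months, DESeq2 kept 17 and 13, and total counts 17 and 13. GC offsets left 0 calls at 15 against 9 months, 3 at 30 against 2 months and 2 at 30 against 24 months. They reversed Cspg4 (-0.12) and Lhfpl3 (0.11) at 30 against 2 months, and Cspg4 (-0.17), Lhfpl3 (0.11), Olig1 (-0.025) and Olig2 (-0.047) at 30 against 24 months, in log2 fold change. Without 30 months replicates 2 to 5 the counts were 1 at 30 against 2 months and 0 at 30 against 24 months (2 at an unadjusted p under 0.05), and Cspg4 (-0.11) and Matn4 (-0.065) at 30 against 2 months and Cspg4 (-0.21), Matn4 (-0.19), Olig1 (-0.083) and Olig2 (-0.053) at 30 against 24 months were reversed; of these 4 only Olig1 was called with all libraries. Leaving out 1 library gave 2 to 3 calls at 9 against 2 months, 2 to 2 at 15 against 2 months, 1 to 3 at 15 against 9 months, 4 to 4 at 24 against 15 months and 2 to 4 at 24 against 2 months. It gave 5 to 7 for any difference, 2 to 3 for the trend, 6 to 8 at 30 against 2 months and 5 to 7 at 30 against 24 months. The 24 against 2 month count was 2 without 2 months replicate 4 or 24 months replicate 1 or 3. With GC correction, an alternative added after the data were seen, leaving out 1 library of 30 months gave 3 to 5 calls against 2 months (5 without replicate 1, 2 or 3) and 1 to 4 against 24 months (4 without replicate 3 and 1 without replicate 5). At 30 against 2 months without correction, the call of Cspg4 was lost when 2 months replicate 3, or 30 months replicate 2, 3 or 5, was left out (adjusted p = 0.118 at the highest). That of Matn4 was lost when 2 months replicate 2, 3 or 5, or 30 months replicate 3, 4 or 5, was left out (adjusted p = 0.121 at the highest). C1ql1 and Matn4 had the fewest counts of the members, 77 to 270 per library, which limits the precision of their values.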

Other observations

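Markers of other brain cell types also moved between 24 and 2 months. Of 10 astrocyte genes 4 rose, and 5 with GC correction. Gfap, the intermediate filament protein of reactive astrocytes, had 362 ± 49.2 CPM at 24 months, against 204 ± 12.2 CPM at 2 months (log2 fold change 0.82, adjusted p = 1.34e-06). Of 8 microglial genes 5 rose, with C1qa, a complement component, at 42.6 ± 3.18 CPM at 24 months, against 28.1 ± 4.92 CPM at 2 months (log2 fold change 0.60, adjusted p = 1.22e-05). Of 7 endothelial genes 1 rose and 2 fell, among them Tek, the angiopoietin receptor (log2 fold change -0.38, adjusted p = 7.44e-06). With GC correction 0 of the 7 rose and 3 fell. Of 10 neuronal genes 1 rose and 1 fell, and the gene that fell was Stmn2, a growth-associated protein (log2 fold change -0.16, adjusted p = 6.26e-05). With GC correction 1 of the 10 rose and 2 fell.

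In the lists that could show other tissue in a dissected hemisphere, edgeR called 0 of 6 choroid plexus genes at 24 relative to 2 months (0 at an unadjusted p under 0.05 and 0 by DESeq2). It called 0 of 6 tested hindbrain genes (1 and 1) and 0 of 5 liver genes (3 and 1). At 9 relative to 2 months it called 0 of each as well, with 1 choroid plexus gene and no hindbrain or liver gene at an unadjusted p under 0.05, and DESeq2 called 0. Both tools took the spread of a gene from all 20 libraries, 9 months replicate 1 among them. Its choroid plexus sum was 37.4 CPM, against 419 to 719 CPM in the others. The lack of choroid plexus calls therefore cannot show that these genes were unchanged. The summed level of the 6 choroid plexus genes was 604 to 719 CPM at 24 months, against 481 to 543 CPM at 2 months, with no overlap. Most of this sum was Ttr, with 592 ± 39.1 CPM at 24 months and 456 ± 20.4 CPM at 2 months (log2 fold change 0.38, adjusted p = 0.588 in edgeR). Folr1, Kl and Clic6 had log2 fold changes of 0.18, 0.15 and 0.26, and Kcne2 and Aqp1 -0.06 and 0.0003. The summed level of the 5 liver genes was 47.3 to 212 CPM at 24 months and 0.765 to 157 CPM at 2 months, and at 30 months it was 0.897 to 153 CPM. The summed level of the hindbrain list was 76.3 to 108 CPM at 24 months, against 81.5 to 119 CPM at 2 months. At 30 relative to 24 months 4 of 8 tested hindbrain genes were called, all higher, and 5 with GC correction, where 25.5% and 24.3% of all genes were called higher. Their summed level at 30 months was 70.8 to 195 CPM, highest in replicate 4. Whether these levels bear on the 8 genes was not tested.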
